A study of Mus musculus with 12 samples.

Results

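The 10 genes described here are core transcription factors of blood cell lineages: the RUNX factors *Runx1* and *Runx3*, the ETS factors *Spi1* (which encodes PU.1) and *Fli1*, the C/EBP factors *Cebpa* and *Cebpb*, the basic helix-loop-helix (bHLH) factors *Tal1* and *Lyl1*, their partner *Lmo2*, and *Myb*. They were taken as a list of names, drawn up with earlier results of these data known and with no threshold on their values, and all 10 are among the 41255 genes of the mRNA table. The table of ribosome-protected mRNA fragments (RPF) lists 10080 genes and holds 9 of the 10, all but *Cebpa*. The values come from Ba/F3, a mouse lymphoid cell line, transduced with a retroviral vector for human RPL10, either WT or with the R98S mutation found in leukaemia. In all clones of both genotypes the endogenous mouse *Rpl10* was knocked down with an shRNA, and every clone is a culture grown from a single cell and kept for strong knockdown, so clone and genotype effects are separated only by the 3 clones in each genotype. The R98S clones were 11, 13 and 35 and the WT clones 28, 29 and 36, each with 1 RPF library and 1 mRNA library, which makes 12 libraries, all from cells given cycloheximide at 100 μg/ml for 5 min. Mouse *Rpl10* had between 1449 and 2905 normalized mRNA counts in the R98S clones and between 2230.2 and 4501 in the WT clones. Since knockdown and transgene are common to both genotypes, this gene does not check the labels.

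RUNX factors bind DNA together with CBFβ and are needed when blood stem cells first form and when lymphocytes mature. PU.1 and the C/EBP factors drive myeloid programmes, FLI1 those of megakaryocytes, and MYB keeps progenitors dividing. TAL1 (also called SCL) or LYL1 pairs with an E protein such as TCF3, and LMO2 bridges this pair to LDB1 and a GATA factor. This complex acts in stem cells, red cells and megakaryocytes, and its members TAL1, LYL1 and LMO2 are known as oncogenes of T-cell leukaemia.

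The members fall into families of related sequence, which matters for reads of about 30 bases. Over their longest coding sequences in the GENCODE annotation of GRCm38, the longest identical run between 2 members is shared by *Runx1* and *Runx3*, with 38 bases. It starts at base 229 of the 1395 coding bases of *Runx1* and at base 244 of the 1269 of *Runx3*, within the part that encodes the DNA-binding Runt domain. The shared run is shown in capitals with 12 flanking bases on each side, since footprints inside it cannot be assigned to 1 gene.
Runx1: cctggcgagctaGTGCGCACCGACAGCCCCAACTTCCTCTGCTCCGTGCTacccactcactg
Runx3: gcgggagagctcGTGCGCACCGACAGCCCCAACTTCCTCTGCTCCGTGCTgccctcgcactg
Only 9 windows of 30 bases are identical between the pair, of 1366 in *Runx1* and 1240 in *Runx3*. The next longest run, 29 bases, lies in the part of *Cebpa* and *Cebpb* that encodes the DNA-binding basic region.
Cebpa: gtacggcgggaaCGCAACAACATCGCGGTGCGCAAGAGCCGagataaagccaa
Cebpb: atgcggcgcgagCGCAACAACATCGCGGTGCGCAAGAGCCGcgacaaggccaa
No window of 30 bases is identical between these 2 coding sequences, and every other pair of members shares runs of at most 15 bases.

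The RefSeq promoters on GRCm38.p6, which hold 250 bases before and 50 after each start site, matched 7 of the 10 members with 10 promoters. *Spi1*, *Lmo2* and *Fli1* were not matched. The *Lyl1* promoter is shown beside the pair of *Tal1* promoters because the mRNA of these related factors differed between genotypes in one case and overlapped in the other. Capitals mark matches, on either strand, to the GATA letters AGATAA, the E-box letters CANNTG, which bHLH factors recognise, the ETS letters CCGGAA and the RUNX letters TGTGGT; no marked match overlaps another.
Lyl1, chr8:84701207-84701506, plus strand: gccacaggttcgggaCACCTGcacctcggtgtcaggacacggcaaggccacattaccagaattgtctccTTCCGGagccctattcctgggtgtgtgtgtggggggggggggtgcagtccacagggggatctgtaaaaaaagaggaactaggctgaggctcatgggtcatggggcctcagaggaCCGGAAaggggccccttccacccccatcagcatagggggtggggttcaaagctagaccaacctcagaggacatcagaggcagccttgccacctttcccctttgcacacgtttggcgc
Tal1 first promoter, chr4:115056176-115056475, plus strand: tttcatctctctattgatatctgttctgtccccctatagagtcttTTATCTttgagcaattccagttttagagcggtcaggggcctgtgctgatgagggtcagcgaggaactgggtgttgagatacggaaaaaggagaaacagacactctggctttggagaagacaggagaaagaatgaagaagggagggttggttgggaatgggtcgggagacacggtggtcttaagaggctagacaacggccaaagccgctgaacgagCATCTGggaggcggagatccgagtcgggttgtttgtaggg
Tal1 second promoter, chr4:115057561-115057860, plus strand: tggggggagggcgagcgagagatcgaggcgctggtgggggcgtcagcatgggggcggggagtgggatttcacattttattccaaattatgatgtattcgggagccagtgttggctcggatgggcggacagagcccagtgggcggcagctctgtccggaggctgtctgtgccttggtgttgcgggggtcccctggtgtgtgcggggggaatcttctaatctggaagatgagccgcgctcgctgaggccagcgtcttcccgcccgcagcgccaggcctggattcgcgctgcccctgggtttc
The *Lyl1* window holds 2 ETS matches and 1 E-box match. The first *Tal1* window holds 1 GATA match and 1 E-box match, and the second holds none of the 4. Of all 32851 promoters of this length in the table, 11.2% hold the GATA letters, 72.3% the E-box letters, 14.9% the ETS letters and 16.8% the RUNX letters, so that none of these single matches is rare.
A rarer feature is shared by the first promoters of *Runx1* and *Runx3*. Both hold 2 RUNX matches on the minus strand of the promoter, 2 bases apart, shown here in capitals within 30 bases.
Runx1, chr16:92826025-92826054, minus strand: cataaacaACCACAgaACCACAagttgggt
Runx3, chr4:135120503-135120532, plus strand: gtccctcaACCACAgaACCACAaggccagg
The pair of matches starts 29 bases after the start site of *Runx1* and 134 bases before that of *Runx3*. Such a pair at this distance, on either strand, occurs in 7 of the 32851 promoters, or 0.0213%. These are matches of letters and no measure of binding.

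Of the members, 9 were expressed in all libraries and *Cebpa* was not detected. Per length, *Lyl1* and *Tal1* were the most abundant mRNAs and *Lmo2* the least. The mRNA level was taken as normalized counts per kb of exon and the RPF level as normalized counts per kb of coding sequence without its first 15 and last 5 codons, the part in which footprints were counted. On the mRNA scale *Lyl1* had a mean of 1412 per kb (range over the 6 clones 613 to 2251), above the mean level of 95.1% of tested genes, and *Tal1* 1249 per kb (878 to 1469). These 2 had no common order over the 6 clones, since *Lyl1* was above *Tal1* in the 3 WT clones and below it in the 3 R98S clones. *Tal1* and *Fli1*, with 469.7 per kb (334 to 597), were separated in every clone. Below *Fli1* came *Spi1* with 390.1, *Myb* with 339.9, *Cebpb* with 295, *Runx1* with 182, *Runx3* with 140.4 and *Lmo2* with 81.3 per kb, and all neighbours in this order had overlapping ranges. The order of *Fli1*, *Spi1*, *Myb*, *Cebpb* and *Runx1* rests on the length used. With the length of the longest coding transcript *Myb* had 822, *Spi1* 517, *Fli1* 494, *Runx1* 373 and *Cebpb* 295 per kb.

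On the RPF scale *Lyl1* was again highest, with 1606 per kb (599 to 2579.6), followed by *Cebpb* with 1230.0 (873 to 1485), *Tal1* with 867, *Runx1* with 838, *Spi1* with 737, *Fli1* with 716 and *Myb* with 479.9 per kb, each with a range that overlapped the next. *Runx3* with 139 (125 to 170.4) and *Lmo2* with 60.8 per kb (22.7 to 104) were the lowest, and here both steps, from *Myb* to *Runx3* and from *Runx3* to *Lmo2*, were separate in every clone. The 2 tables were normalized separately, so the ratio of the RPF level to the mRNA level per length has no absolute scale and was compared only between genes. Its median over 8780 genes was 1.01. *Cebpb* had a mean ratio of 5.00 (2.26 to 8.91), placed above 97.7% of these genes, and *Runx1* 4.73 (3.41 to 7.53), above 97.6%. *Runx3* had 1.00, *Lyl1* 1.12, *Lmo2* 0.731 and *Tal1* 0.701. The ratio depended on the annotated length. With the longest transcript it fell from 4.73 to 2.37 for *Runx1* and from 1.49 to 0.615 for *Myb*, and the lowest member was *Lmo2* with 0.583, while *Tal1* had 0.674.

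**Figure D1:**
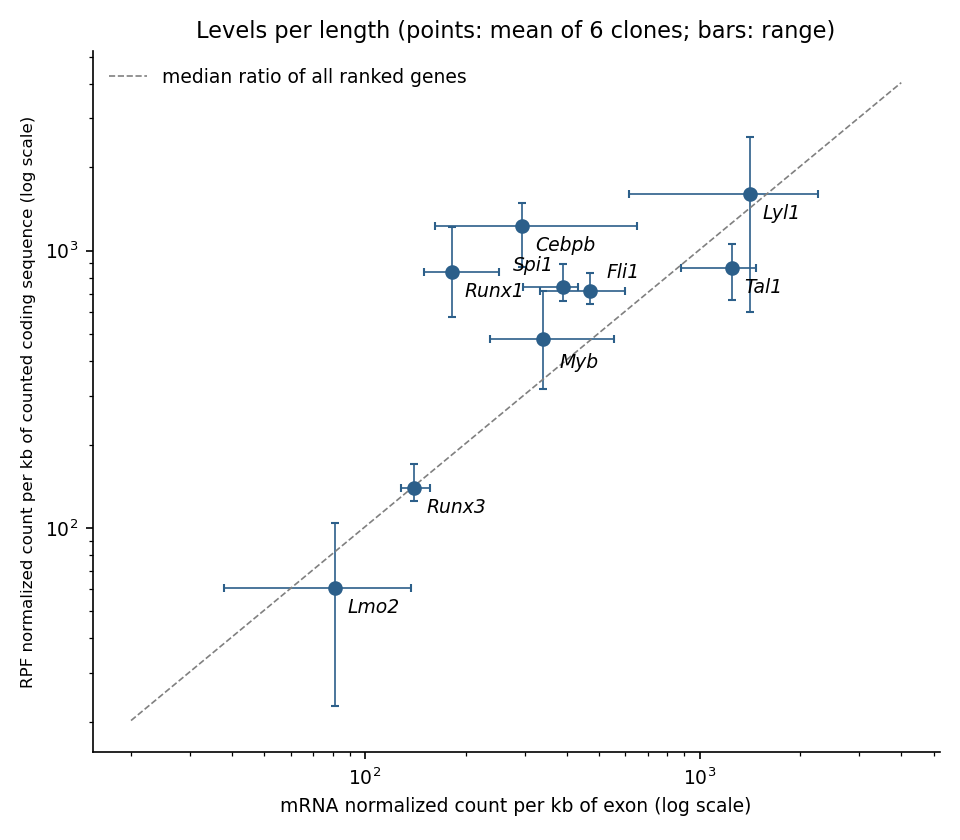
Level of each expressed factor per length on log axes, with mRNA normalized counts per kb of exon on the horizontal axis and RPF normalized counts per kb of counted coding sequence on the vertical axis. Points are means of the 6 clones, bars span the lowest and highest clone, and the dashed line marks the median ratio of 1.01. *Cebpb* and *Runx1* lie farthest above the line, and *Tal1* and *Lmo2* lie below it.

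Between genotypes, the mRNA of 2 of the 9 tested members fell in R98S clones, *Lyl1* and *Lmo2*, and no member rose (limma on log2(value + 1), adjusted p under 0.1). Without adjustment, 2 members (*Fli1* and *Myb*) had p under 0.05 for a rise, of which DESeq2 called 1 (*Myb*) and edgeR 0. In the same fit 3.91% of 11344 genes were called lower and 3.03% higher. For RPF 3 of 9 members fell, *Lyl1*, *Lmo2* and, less stably, *Tal1*, beside 4.62% called lower and 3.13% called higher of 9580 genes. No member rose in RPF with limma, edgeR or DESeq2, and 0 had an unadjusted p under 0.05 for a rise. For translation efficiency (TE, the log2 ratio of RPF to mRNA in each clone) no member was called by limma, edgeR or DESeq2, beside 0.0221% of 9043 genes called lower and 0% called higher, although 1 of 9 members and 710 genes in all had an unadjusted p under 0.05. The members' median log2 change was -0.27 for mRNA and -0.00081 for RPF, against 0.01 for all tested genes in both assays. In these bulk cultures, fewer cells of a type and less RNA per cell cannot be told apart. P-values set the difference between genotypes against the spread between clones.

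**Figure D2:**
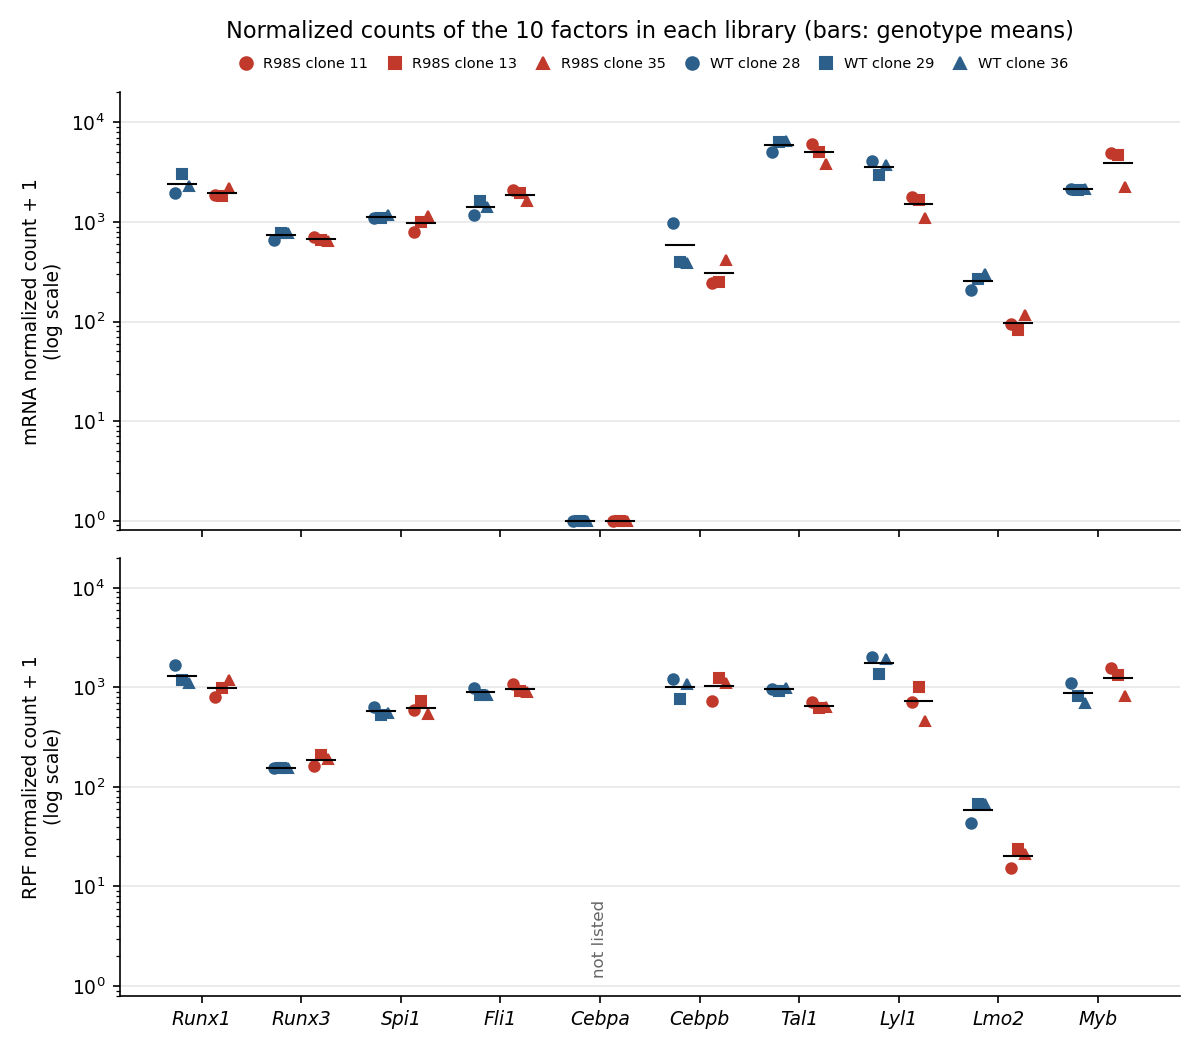
Normalized counts plus 1, on a log scale, of the 10 factors in the 6 mRNA libraries (top) and the 6 RPF libraries (bottom), with red for R98S and blue for WT clones and a symbol for each clone. Bars are genotype means. *Lyl1* and *Lmo2* are lower in every R98S clone in both panels, *Cebpa* is at 0 in the mRNA panel, and *Myb* mRNA is high in R98S clones 11 and 13 only.

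*Lyl1* (ENSMUSG00000034041, chr8:84701457-84704715, plus strand, GRCm38) encodes a bHLH factor close to TAL1. R98S clones 11, 13 and 35 gave 1769, 1644 and 1104 normalized mRNA counts, against 4052, 2975 and 3711 for WT clones 28, 29 and 36. The genotypes did not overlap, the highest R98S clone lying well below the lowest WT clone. The log2 fold change was -1.27 (SE 0.22, limma adjusted p = 0.0132), or 2.41-fold lower in R98S. The RPF counts were 718, 1003 and 463 in R98S and 1997, 1349 and 1929 in WT clones, again without overlap, with a log2 fold change of -1.32 (SE 0.27, limma adjusted p = 0.0261). RPF and mRNA thus fell by a like amount, and the TE change was -0.05 (SE 0.21). Genes on chromosome 8 were also lower as a whole, with a median log2 change of -0.22 for mRNA. With the median shift of each chromosome removed, *Lyl1* mRNA changed by -1.06 (limma adjusted p = 0.0294). Its exons share 4 bases, none of them coding, with *Nfix* on the other strand. *Nfix* was also called lower for mRNA (log2 fold change -0.79, limma adjusted p = 0.0305), while its RPF changed by -0.02. Whether the changes of *Lyl1* and *Nfix* are linked was not tested.

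*Lmo2* (chr2:103957986-103981878, plus strand) encodes the LIM-only bridge of the complex and was the least abundant detected member. R98S clones had 92.9, 81.9 and 115 normalized mRNA counts, against 207, 264 and 296 for WT. The groups did not overlap, and the log2 fold change was -1.39 (SE 0.26, limma adjusted p = 0.0186), or 2.63-fold lower. Its RPF counts were 14.4, 22.6 and 20.2 in R98S and 42.0, 65.6 and 65.9 in WT clones (log2 fold change -1.55, SE 0.34, limma adjusted p = 0.0334). These rest on few reads, between 12 and 63 per RPF library. The call was lost without R98S clone 11 (limma adjusted p = 0.126) and without WT clone 36 (limma adjusted p = 0.121). The TE change of *Lmo2* was -0.15 (SE 0.24).

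*Tal1* (chr4:115056426-115071755, plus strand), the bHLH factor that gives the complex its name, had 6038, 5086 and 3845 mRNA counts in R98S and 5029.7, 6399 and 6431 in WT clones. The genotypes overlapped, and the log2 change was -0.27 (SE 0.20, limma adjusted p = 0.543). The RPF counts were 716, 617 and 629.7 in R98S and 963, 917 and 978 in WT clones and did not overlap. The RPF log2 fold change of -0.54 (SE 0.16) passed narrowly with limma (adjusted p = 0.0939), and it did not pass in any of the 6 fits that left out 1 clone, where the adjusted p ran from 0.12 to 0.292. The TE change of -0.27 (SE 0.22) did not pass. With the median shift of each chromosome removed, *Tal1* changed by -0.73 for RPF (limma adjusted p = 0.0291) and by -0.45 for mRNA (limma adjusted p = 0.296).

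The ratio of *Lyl1* to *Tal1* within a library does not depend on library scaling. Per kb of exon, *Lyl1* mRNA was 0.713, 0.787 and 0.698 times the level of *Tal1* in R98S clones and 1.96, 1.13 and 1.40 times in WT clones. *Tal1* was thus the more abundant of the 2 in all R98S clones and *Lyl1* in all WT clones. The log2 change of this ratio was -1.0, with an exact two-sided permutation p of 0.1, the smallest that 3 against 3 clones allow. The ratio does hold the shifts of whole chromosomes. Genes on chromosome 8, which holds *Lyl1*, had a median log2 mRNA change of -0.22, against 0.18 for chromosome 4, which holds *Tal1*. With the chromosome medians removed, the mRNA change was -1.06 for *Lyl1* and -0.45 for *Tal1*. For RPF the ratio was 1.2, 1.95 and 0.881 in R98S and 2.48, 1.76 and 2.36 in WT clones, which overlap (exact permutation p = 0.2). The ratio of *Lmo2* to *Tal1* was also lower in every R98S clone, for mRNA with a mean of 0.0414 against 0.0865 and for RPF with 0.0434 against 0.0893.

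**Figure D3:**
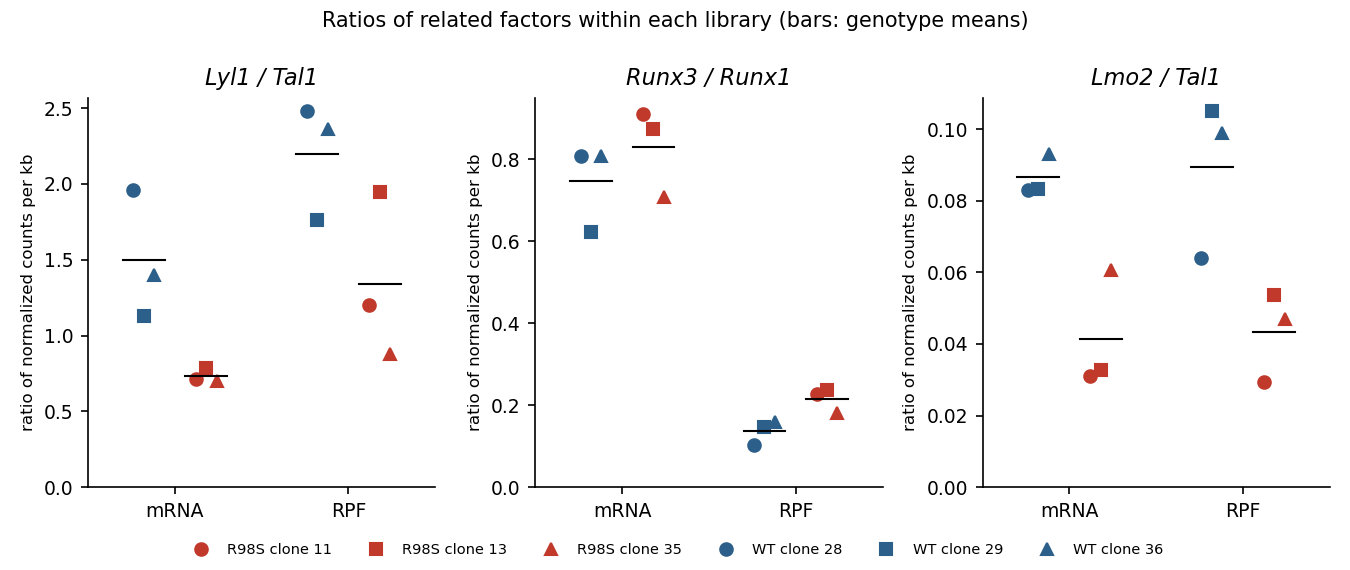
Ratio of normalized counts per kb between related factors in each library, for mRNA and RPF, with red for R98S and blue for WT clones and bars for genotype means. The *Lyl1* to *Tal1* mRNA ratio lies below 1 in the 3 R98S clones and above 1 in the 3 WT clones, and the *Runx3* to *Runx1* ratio separates the genotypes only for RPF.

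*Myb* (chr10:21124935-21160984, minus strand), a factor of dividing progenitors, showed the largest rise of a member, which did not pass the test. R98S clones 11, 13 and 35 gave 4958, 4653 and 2218 normalized mRNA counts, against 2151, 2111 and 2131 for WT. R98S clones 11 and 13 stood far above all others, while clone 35 lay just above the highest WT clone. The log2 fold change was 0.80 (SE 0.28, limma adjusted p = 0.163). Without R98S clone 35 it was 1.17 (adjusted p = 0.0113), and DESeq2 on recovered reads, with all clones, gave 0.0267. The RPF counts followed the same clones with 1581, 1323 and 819 in R98S and 1103, 820.4 and 701 in WT, and overlapped (log2 fold change 0.48, SE 0.26, limma adjusted p = 0.334). Of the coding bases of *Myb*, 491 lie in exons of *Gm26577* on the other strand, and whether the counting used strand is not given in the sources used here.

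*Runx1* (chr16:92601466-92826149, minus strand) had 1882, 1804 and 2172 normalized mRNA counts in R98S and 1944, 3016 and 2291 in WT clones. The genotypes overlapped, and the log2 change of -0.29 (SE 0.20) had a limma adjusted p of 0.496. Its RPF counts of 792, 991 and 1175 in R98S and 1669.9, 1174 and 1092 in WT clones also overlapped (log2 change -0.40, SE 0.22, limma adjusted p = 0.330). Of the coding bases of *Runx1*, 106 lie in exons of *Gm26626* on the other strand. *Runx3* (chr4:135120652-135177990, plus strand), the family member of T cells, had 713, 657 and 639.6 mRNA counts in R98S and 653, 782 and 769.5 in WT clones. Its RPF counts were 161, 209 and 189.8 in R98S and 153, 154 and 155 in WT clones. The latter did not overlap, since all WT clones sat at nearly the same value just below the lowest R98S clone, but the log2 change of 0.27 (SE 0.20) had a limma adjusted p of 0.492. The RPF ratio of *Runx3* to *Runx1* per kb was 0.228, 0.236 and 0.181 in R98S and 0.102, 0.147 and 0.159 in WT clones. It was higher in every R98S clone, a log2 change of 0.67 (exact permutation p = 0.1), whereas the mRNA ratio overlapped (log2 change 0.16, exact permutation p = 0.5). The RPF of genes on chromosome 4, which holds *Runx3*, had a median log2 change of 0.21, against -0.05 for chromosome 16, which holds *Runx1*. With the chromosome medians removed, the RPF change of *Runx3* was 0.08.

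*Spi1* (chr2:91082390-91115756, plus strand), the gene of PU.1, varied little in mRNA among WT clones. The WT clones had 1106, 1102 and 1167 normalized counts and the R98S clones 799, 999 and 1134, a log2 change of -0.22 (SE 0.18, limma adjusted p = 0.591). Its RPF counts were 592, 723 and 536 in R98S and 628, 529.9 and 557 in WT clones, which overlapped. *Fli1* (chr9:32422204-32542861, minus strand), the other ETS factor, had 2082, 1945 and 1609 mRNA counts in R98S and 1165, 1605 and 1418 in WT clones. The groups were separated only by the small step from 1605 to 1609, and the log2 fold change of 0.43 (SE 0.19) did not pass (limma adjusted p = 0.265). The RPF counts of *Fli1* were 1081, 920.3 and 897 in R98S and 994, 840.2 and 835 in WT clones and overlapped.

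*Cebpb* (chr2:167688915-167690418, plus strand) has a single exon and encodes a C/EBP factor of the inflammatory response. The R98S clones gave 244, 251 and 417 normalized mRNA counts, against 975, 391 and 383 for WT. WT clone 28, whose mRNA library was the shallowest, stood apart from all others, and the log2 change of -0.84 (SE 0.38, limma adjusted p = 0.282) was -0.39 without it. Its RPF counts were 723, 1229.5 and 1112 in R98S and 1214, 763 and 1069 in WT clones and overlapped, with means of 1021 and 1015. The ratio of its RPF to its mRNA normalized counts, which has no absolute scale, was 2.97, 4.91 and 2.67 in R98S and 1.25, 1.95 and 2.79 in WT clones and overlapped. Its TE change of 0.84 (SE 0.35) was the largest of the members, with an unadjusted p of 0.0372 and a limma adjusted p of 0.629. It ran from 0.54 without WT clone 28 to 1.12 without WT clone 36. Of its coding bases, 312 lie in exons of *Tmem189* on the other strand.

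*Cebpa* (chr7:35119293-35121928, plus strand), the C/EBP factor of granulocytes, had 0 reads in all 6 mRNA libraries. A count of 0 allows up to 3 reads per library, which is 2.35 to 8.06 normalized counts depending on the library and covers counting error only. Of the other C/EBP genes, *Cebpe* had between 449 and 786, *Cebpg* between 660.2 and 1324 and *Cebpd* between 213 and 365 normalized mRNA counts, and none of the 3 was called.

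The mRNA values of 2 members were lower and those of 2 members higher in every R98S clone than in any WT clone, beside 11.6% and 11.9% of all tested genes. For RPF, 3 were lower and 1 higher, beside 12.8% and 12.5%. The called members *Lyl1*, *Lmo2* and *Tal1* lie on chromosomes 8, 2 and 4.

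**Figure D4:**
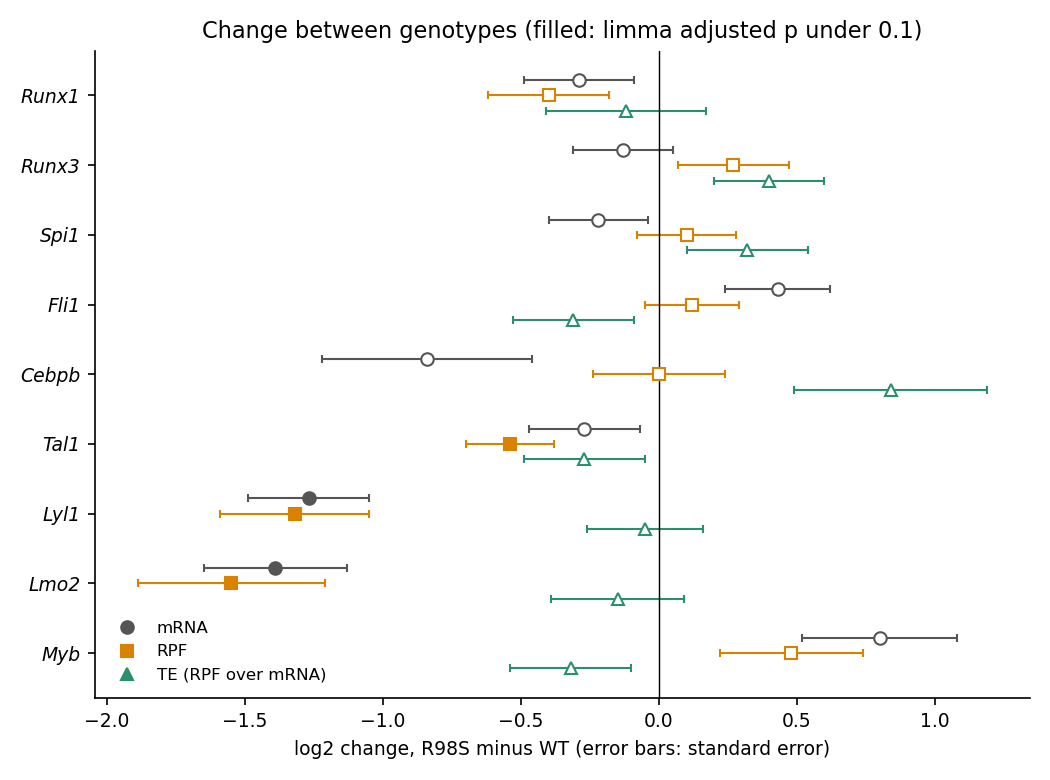
Log2 change of each expressed factor, R98S minus WT, for mRNA (circles), RPF (squares) and TE (triangles), with bars for the standard error and filled symbols for an adjusted p under 0.1 with limma. The filled symbols are *Lyl1* and *Lmo2* for mRNA and RPF, and *Tal1* for RPF.

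Partners and relatives of these factors came from a list of 42 genes, of which 29 were tested for mRNA. Of these 3 fell, 1 rose and 25 were not called, beside 3.91% of all tested genes called lower and 3.03% higher. The median log2 change of the list was -0.05 for mRNA and -0.26 for RPF, against 0.01 for all tested genes in both assays. For RPF, where 4.62% of all tested genes were called lower and 3.13% higher, 3 of 25 fell and none rose with limma, edgeR or DESeq2 (2 had an unadjusted p under 0.05 for a rise). The TE of none of 25 was called by these 3 tools, and 2 had an unadjusted p under 0.05. The largest change was in *Id1*, an inhibitor that binds E proteins and keeps them from pairing with TAL1 or LYL1. For *Id1* mRNA the R98S clones gave 175, 235 and 981 normalized counts, against 5137, 3108 and 3575 for WT. R98S clone 35 lay above the other R98S clones, but all 3 were far below WT, and the log2 fold change was -3.48 (SE 0.54, limma adjusted p = 0.00736), or 11.2-fold lower. Its RPF changed by -3.50 (limma adjusted p = 0.00883). *Id2* also had lower means in R98S, with a log2 mRNA change of -0.94 that did not pass with limma, whereas DESeq2 called both tested inhibitors, *Id1* and *Id2*, lower in both assays. *Id3* had at most 1 read in any library.

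Of the partners of the SCL complex, 1 of 10 tested fell in mRNA and 1 of 9 fell in RPF with limma. Over all tested genes 3.91% were called lower for mRNA and 4.62% for RPF. In mRNA DESeq2 called 3 of these partners lower, and 3 had an unadjusted p under 0.05 for a fall. None rose with limma, edgeR or DESeq2, nor at an unadjusted p under 0.05. *Cbfa2t3* was not among these partners, since it was listed with those of RUNX factors. The adaptor *Ldb1* changed by 0.20 for mRNA and 0.23 for RPF, and the E protein *Tcf3* by -0.05 and 0.43, none of them called by limma. The E protein *Tcf4* fell in RPF, with 205, 167 and 205 normalized counts in R98S and 349.6, 309 and 356 in WT clones (log2 fold change -0.82, limma adjusted p = 0.0412). The call was lost without R98S clone 11 or 13 or WT clone 28 or 36, with limma adjusted p up to 0.18, and the mRNA change of -0.64 did not pass with limma (adjusted p = 0.135). The latter passed with DESeq2 (adjusted p = 0.0487) and, with limma, without WT clone 28 (-0.81, adjusted p = 0.0460). *Gata2* was called lower for mRNA (-0.73, limma adjusted p = 0.0805) but not for RPF (-0.37). That call was kept only without WT clone 29 among the 6 fits that left out 1 clone (limma adjusted p from 0.0940 to 0.211). *Gata1* ranged from 1242 to 2928 mRNA counts with overlap, and neither of its changes was called. *Gfi1b*, a repressor of the same lineage, changed by 0.14 for mRNA and by -0.59 for RPF, neither called.

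Of the 4 tested partners of RUNX factors, *Cbfb*, the common subunit, had between 4427 and 4942 mRNA counts in R98S and between 4624 and 4866 in WT clones and was not called. The corepressor *Cbfa2t3*, also a component of SCL complexes, fell in both assays. It had 2214, 2187 and 2128 normalized mRNA counts in R98S and 3214, 5609 and 5000.4 in WT clones, with nearly equal R98S clones below all WT clones (log2 fold change -1.04, SE 0.22, limma adjusted p = 0.0291). Its RPF changed by -0.98 (limma adjusted p = 0.0154). The mRNA call was lost without R98S clone 11, R98S clone 13 or WT clone 36, with adjusted p from 0.109 to 0.116, whereas the RPF call held in all 6 such fits. *Runx2*, the RUNX factor of bone, rose in mRNA, with 748, 621 and 649 normalized counts in R98S and 389, 266 and 406 in WT clones (log2 fold change 0.94, limma adjusted p = 0.0477). Its RPF change of 0.87 had a limma adjusted p of 0.225 and ran from 0.39 without WT clone 29 to 1.28 without WT clone 28, which passed (limma adjusted p = 0.0920), and the mRNA call was lost without R98S clone 11 or 13 or WT clone 29 (limma adjusted p up to 0.222).

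Known targets of the factors were a list of 37 genes, 18 of which were tested for mRNA and 16 for RPF. Among them 1 fell and 1 rose in mRNA, and 3 fell and 1 rose in RPF, beside 3.91% of all tested genes called lower and 3.03% higher for mRNA and 4.62% and 3.13% for RPF. The median log2 change of the list was 0.13 for mRNA and -0.22 for RPF, against 0.01 for all tested genes. Most targets of C/EBP factors had few reads. *Csf3r* had no read in any mRNA library, and of the 8 C/EBP targets only *Cebpe* was tested. The MYB targets *Kit* and *Cd34* were also at 0 in all 6 mRNA libraries. *Myc*, a target of MYB and many other factors, fell, with 3104, 2956 and 6991 normalized mRNA counts in R98S and 8019, 9399 and 9816 in WT clones. R98S clones 11 and 13, the clones with high *Myb*, were the lowest, and the log2 fold change was -1.18 (SE 0.30, limma adjusted p = 0.0691). For RPF it was -1.54 (limma adjusted p = 0.0380). The mRNA call was lost without R98S clone 11 or 13 or WT clone 29 or 36 (limma adjusted p up to 0.259) and the RPF call without R98S clone 11 or 13 or WT clone 28 (up to 0.175).

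Of the 3 tested PU.1 targets, the Fc receptor gene *Fcgr3* rose, with 3702, 3183 and 3796 normalized mRNA counts in R98S and 1493, 2297 and 1979 in WT clones (log2 fold change 0.91, SE 0.19, limma adjusted p = 0.0343). Its RPF changed by 0.81 (limma adjusted p = 0.0291), and both calls were lost without R98S clone 11 or WT clone 36 (limma adjusted p up to 0.149). *Btk* and *Fcer1g* were not called. Among FLI1 targets, the platelet glycoprotein genes *Gp1ba* and *Gp9* fell in RPF. *Gp1ba* had 45.7, 74.6 and 89.0 normalized RPF counts in R98S and 178, 238 and 224 in WT clones (log2 fold change -1.64, limma adjusted p = 0.0127). *Gp9* had 32.4, 37.7 and 42.0 in R98S and 95.5, 66.6 and 68.5 in WT clones (-1.01, limma adjusted p = 0.0735). The call of *Gp1ba* held in all 6 fits that left out 1 clone, and that of *Gp9* was lost without R98S clone 11 or 13 or WT clone 28 or 36 (limma adjusted p up to 0.229). The mRNA changes of -1.36 for *Gp1ba* and -1.02 for *Gp9* did not pass with limma (adjusted p = 0.147 and 0.116). DESeq2 called both lower (adjusted p = 0.00316 and 0.0769) and edgeR called *Gp1ba* (0.0794), which limma also called without WT clone 28 (-1.96, adjusted p = 0.00540). None of the 7 tested SCL targets was called by limma in mRNA, where 1 had an unadjusted p under 0.05 and edgeR called 1 higher, and none of 5 in RPF by limma, edgeR or DESeq2, where 2 had an unadjusted p under 0.05.

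**Figure D5:**
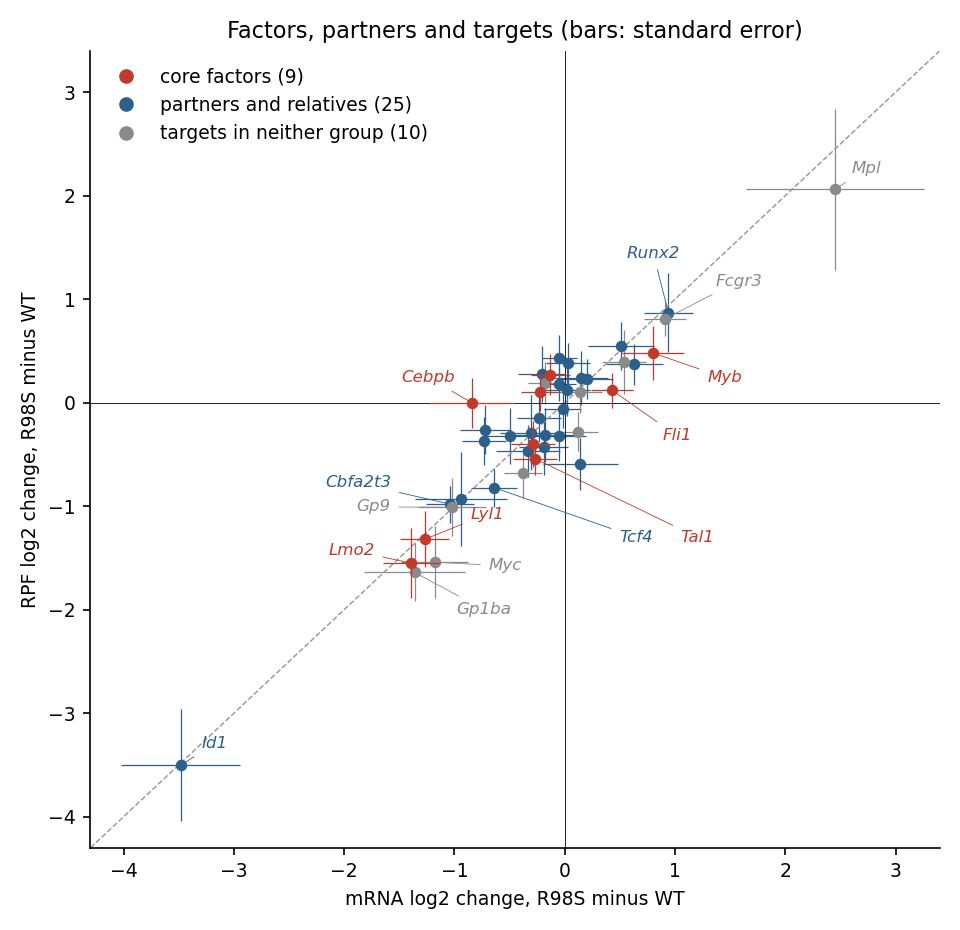
Log2 change of mRNA (horizontal axis) and RPF (vertical axis), R98S minus WT, for the 9 expressed core factors (red), 25 partners and relatives (blue) and 10 targets in neither group (grey) tested in both assays, with standard errors as bars and the line of equal change dashed. *Lyl1* and *Lmo2* lie close to the line at -1.27 and -1.39 on the mRNA axis, *Id1* lies lowest, and *Cebpb* lies off the line, with an mRNA change of -0.84 and almost none in RPF.

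Markers of cell types were checked beside these results. The label gives a lymphoid line, yet of 11 pro-B cell markers only *Cd79a* and *Cd79b* had a mean of at least 10 normalized mRNA counts, and *Pax5* and *Rag1* were at 0 in all libraries. Mast cell and basophil markers (5 of 8 measured) and erythroid and megakaryocyte markers (5 of 6 listed) were present. Of the mast cell and basophil list, *Kit* and *Prss34* were also at 0 in all libraries, and *Fcer1a* had at most 1 read in any mRNA library. The summed level of the erythroid and megakaryocyte markers was 9366 to 10654 in R98S and 11849.7 to 12961 in WT clones, and that of macrophage and neutrophil markers, most of it from *Adgre1* (listed as *Emr1*), was 419.9 to 1074 in R98S and 5249.9 to 6637 in WT clones. The sums of T cell markers (138 to 146 against 50.9 to 69.8) and pro-B cell markers (1352 to 1672 against 896 to 1157) were higher in R98S clones. Of the 7 T cell markers only 2, *Cd3d* and *Lck*, had a mean of at least 10 normalized mRNA counts, so that sum rests on these low genes. The sum of mast cell and basophil markers (1823 to 2276 against 1071 to 1784) was separated by a small step, and of its 5 markers present only *Cpa3* did not overlap between genotypes, with means of 561 in R98S and 80.8 in WT clones. These sums separate the genotypes as *Lyl1* and *Lmo2* do, and their part in the results was not tested. Total reads per library ran from 6617457 to 23136595 for mRNA, the lowest in WT clone 28, and from 3477723 to 10883086 for RPF.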

How the data were processed

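The 10 members and the lists of partners, targets and cell type markers were chosen with earlier results of these data known. Of 112 list genes, 111 were found in the mRNA table, some under older symbols. The authors deposited 1 table for each of the 2 assays, whose signal is the count of a gene over the DESeq2 size factor of its library. Per the labels and the study's methods, reads were aligned to mm10 (GRCm38) with TopHat2 2.0.11 after removal of ribosomal and transfer RNA reads with Bowtie2, mRNA reads were counted in exons, RPF reads in coding sequences without their ends, and technical replicates of RPF libraries were merged. The counting tool's strand setting is not given in the sources used here. Divided by the smallest step of a library, 100% of values came out whole (within 0.001 of a read), which recovers read numbers. A single read was worth 2.69 normalized counts in the mRNA library of WT clone 28 and 0.784 to 0.860 in the other mRNA libraries.

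Genes with a mean of at least 10 normalized counts were tested with limma 3.58.1 (R 4.3.3, moderated variances with a trend) on log2(value + 1), on which scale all fold changes stand and which understates the change of low genes. TE was tested on the log2 ratio within each clone for the 9043 genes with at least 10 in all 12 libraries. P-values were adjusted over all tested genes by the Benjamini-Hochberg method, with a threshold of 0.1. Libraries of the same clone were paired by the clone number in their labels. Their deviations from the genotype means correlated at 0.609 to 0.656 in the R98S clones. In WT clones 28, 29 and 36 the correlations were 0.218, 0.681 and 0.311, so the pairing was weaker in WT clones 28 and 36. The Babel package used in the study for TE was not run. Single ratios were compared with exact two-sided permutation tests. edgeR 4.0.16 and DESeq2 1.42.0 on recovered reads, other pseudocounts and filters, TMM scaling, library weights, removal of chromosome medians and leaving out each clone were alternatives, and the fits were tested on simulated data. Named genes were all members, the partner and target genes called in any of the 3 measures, and Cbfb, Ldb1, Tcf3, Gata1, Gata2 and Gfi1b. Id2, Id3, Nfix, the C/EBP relatives, Btk, Fcer1g, Csf3r, Kit, Cd34 and the marker genes were named beyond this rule, after their values were seen. Exon lengths came from GENCODE and promoters from RefSeq.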

Additional observations from a re-analysis of the deposited data

How the results depend on the processing

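The mRNA calls of Lyl1 and Lmo2 held in all 9 other settings and all 6 fits that left out 1 clone, with limma adjusted p up to 0.0607 for Lyl1 and 0.0989 for Lmo2 without a clone. The RPF call of Lyl1 also held in all of them, while members called lower in RPF, 3 with all clones, were between 1 and 2 without 1 clone. Members called higher in mRNA, 0 in the main setting, were 1 with DESeq2 (Myb), 2 with library weights (Myb and Fli1) and between 0 and 1 without 1 clone. Library weights also called Cebpb mRNA lower (-0.64, adjusted p = 0.0969), which made 3 members called lower against 2. For RPF those called higher were 1 with library weights (Myb) and between 0 and 1 without 1 clone. Library weights also called the TE of 2 members higher, Cebpb (0.79) and Spi1 (0.49), and raised the TE calls over all genes from 2 to 796, the mRNA calls from 787 to 2959 and the RPF calls from 743 to 1799. DESeq2 called 1283 genes for mRNA and 6 for TE. Without 1 clone the calls ran from 316 to 1109 for mRNA, from 226 to 1156 for RPF and from 0 to 3 for TE. Paired and unpaired TE fits differed little: with no replicate block the count of members called was 0, as with the block, and the TE change of Cebpb was 0.84 in both.

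Some changes that were not called turned in sign, each with an adjusted p of at least 0.461. Removing chromosome medians gave 0.17 for Cbfb and 0.04 for Tcf3 mRNA. The RPF change of Cebpb was 0.0028 with TMM scaling and 0.01 with both edgeR and DESeq2. The TE change was 0.23 for Runx1 and 0.05 for Lyl1 with library weights, and 0.10 for Lmo2 with a pseudocount of 10. Without 1 clone, mRNA changes ran from -0.02 to 0.46 for Ldb1, from -0.10 to 0.04 for Tcf3, from -0.44 to 0.17 for Gata1 and from -0.14 to 0.56 for Gfi1b. RPF changes ran from -0.02 to 0.20 for Spi1 and from -0.19 to 0.23 for Cebpb, and TE changes from -0.36 to 0.22 for Runx1, from -0.24 to 0.05 for Lyl1 and from -0.40 to 0.0042 for Lmo2. Outside the core factors, DESeq2 called 7 partners lower in mRNA, against 3 with limma, and 3 targets lower, against 1. The mRNA call of Gata2 was lost without a filter on low values (limma adjusted p = 0.139) and with chromosome medians removed (0.148), and that of Myc with edgeR (0.103). The causes were not tested. With 3 clones in each genotype, changes of low genes such as Lmo2 RPF rest on few reads.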
